A study of Homo sapiens with 18 samples.

Results

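The genes described here are 9 genes of cell-cell contact, namely the cadherins CDH2, CDH3, CDH5, CDH6, CDH11 and CDH13, the catenin CTNNB1, and the tight junction genes TJP1 and CLDN1. They were taken by symbol from a table of raw counts that holds 58735 genes, and 8 of the 9 passed the low-count filter and were tested among 16129 genes; CDH3 did not pass and is given by its counts alone. RNA was sequenced from PODO/TERT256, an immortalised human podocyte line, a model of the glomerular epithelial cells that wrap kidney capillaries with their foot processes. Cultures were kept on 3D hemispheres with a smooth or a fractal surface. The 6 groups, each of 3 libraries, were the untreated controls on the smooth surface, the untreated controls on the fractal surface, cells given TNF-α and IL-6 on the smooth surface, cells given TNF-α and IL-6 on the fractal surface, cells put with THP-1-derived macrophages on the smooth surface, and cells put with them on the fractal surface (THP-1 is a monocytic line from a human leukaemia). All groups share the 1 cell line and the hemisphere format. The labels give no dose or time, do not say how far the macrophages were kept apart from the podocytes, and do not state that replicate libraries are separate cultures. The p-values therefore rest on library-to-library spread, part or all of which may be technical.

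Classical cadherins are calcium-dependent adhesion proteins that bind the same kind of cadherin on the neighbouring cell and, through their cytoplasmic tail, hold β-catenin and α-catenin at the actin cytoskeleton. Tight junctions form beside them from claudins in the membrane and scaffold proteins such as ZO-1 beneath it. In the mature kidney the junction between podocyte foot processes is the slit diaphragm, a specialised contact in which P-cadherin, ZO-1 and catenins have been described, whereas claudin-1 is known from the parietal epithelial cells that line Bowman's capsule.

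Total counts ran from 11488204 to 21264180 per library. A pair of libraries stood apart from the others of their group. In fractal THP-1 replicate 3, mitochondrial genes took 0.847% of the counts against 4.39% and 4.47% in the other 2 libraries of that group. In smooth cytokines replicate 2 they took 8.09% against 4.22% and 4.63%. The called results of the 9 genes that use these libraries are given with and without them. The defining podocyte markers WT1 and NPHS1 (nephrin) had no count in several groups. Of 19 monocyte and macrophage markers, 17 had counts with THP-1 macrophages on the smooth surface and 15 on the fractal surface. Their summed level was 57.3 to 63.3 CPM (counts scaled by library size) and 28.2 to 32.2 CPM in those groups, against 1.88 to 3.32 CPM in the controls, while C1QB and MRC1 were at 0 in both THP-1 groups. The part of macrophage RNA in the THP-1 results below was not tested.

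CDH2 and TJP1 are the members whose lower level with THP-1 macrophages was called on both surfaces and for which RefSeq promoter sequence (GRCh38.p14) was at hand with a match to a searched motif, and those windows are shown here for that reason. RefSeq promoters were matched for 4 members (CDH2, CTNNB1, TJP1 and CLDN1), and CDH3, CDH5, CDH6, CDH11 and CDH13 were not matched. The 250 bases before each start were searched on both strands for 6 motifs. The first was CAGGTG, the E-box read by the repressors Snail, Slug and ZEB. The motif TGANTCA was searched for AP-1, the factor family of Jun and Fos. STAT factors were searched by TTCNNNGAA, and TEAD factors, the partners of YAP, by GGAATG. TCF and LEF factors, through which β-catenin acts on genes, were searched by CTTTGAA, and NF-κB by its motif. In the windows below, written 5′ to 3′ on the gene's strand, capitals mark the match. The window before the first TJP1 start, chr15:29969050-29969299 (minus strand), held 1 CAGGTG, a motif found in 17.5% of the 35116 promoters in the table. The window before a downstream CDH2 start, chr18:28036642-28036891 (minus strand), held 1 TGANTCA. The letter N stands for any base and was A in this match. The motif with any base at N was found in 6.57% of all promoters.
TJP1: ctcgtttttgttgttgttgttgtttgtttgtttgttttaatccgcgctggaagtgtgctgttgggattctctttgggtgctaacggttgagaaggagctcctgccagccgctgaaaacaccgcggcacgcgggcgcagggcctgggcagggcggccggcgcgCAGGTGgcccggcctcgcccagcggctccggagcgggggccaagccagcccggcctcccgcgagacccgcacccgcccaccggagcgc
CDH2: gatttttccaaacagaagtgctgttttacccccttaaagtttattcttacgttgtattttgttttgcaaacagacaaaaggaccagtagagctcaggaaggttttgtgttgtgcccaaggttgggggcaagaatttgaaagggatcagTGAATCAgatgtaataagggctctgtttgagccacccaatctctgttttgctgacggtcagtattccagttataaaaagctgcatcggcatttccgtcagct
The remaining windows of the 4 matched members held none of the 6 motifs. A match describes the letters and not a bound site.

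N-cadherin (CDH2), the classical cadherin of mesenchymal and neural contacts, was the most abundant member per length among the cadherins in the controls, and its level fell with THP-1 macrophages but not with cytokines. CDH2 (ENSG00000170558) lies on chromosome 18 at 27950966 to 28177446, minus strand (GRCh38, GENCODE 29 here and for the genes below). Levels are CPM after TMM scaling. In the controls CDH2 stood at 598, 591 and 610.4 CPM on the smooth surface and at 602, 625 and 628 CPM on the fractal surface. With cytokines the 3 smooth libraries gave 617, 657 and 674 CPM and the fractal libraries 647, 573 and 625 CPM. With THP-1 macrophages they gave 363, 327 and 311 CPM on the smooth surface and 261, 257 and 191 CPM on the fractal surface. The 4 groups without macrophages overlapped in the order of their means, the smooth THP-1 libraries lay below all of them, and the fractal THP-1 libraries lay below the smooth ones. Tests are quasi-likelihood F-tests by edgeR, adjusted by Benjamini-Hochberg over all genes tested and called at 0.05 (edgeR adjusted p), and differences are log2 fold changes with their standard error (SE). THP-1 macrophages went with a CDH2 change of −0.85 ± 0.09 on the smooth surface (edgeR adjusted p = 9.7e-08) and −1.39 ± 0.09 on the fractal surface (edgeR adjusted p = 7.4e-12; −1.26 ± 0.07 without fractal THP-1 replicate 3, the lowest library). Because the libraries are bulk RNA, fewer cells of a type and less RNA per cell cannot be told apart in this fall or in any other. The fractal change exceeded the smooth change by −0.54 ± 0.13 (edgeR adjusted p = 0.0062), and without that library the difference was −0.41. Between the surfaces CDH2 differed with macrophages, at −0.50 ± 0.09 (edgeR adjusted p = 0.00035), and this was −0.37 ± 0.07 without that library. In the other 4 comparisons and in the cytokine interaction CDH2 did not pass the test, with values from −0.12 to 0.11.

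**Figure D1:**
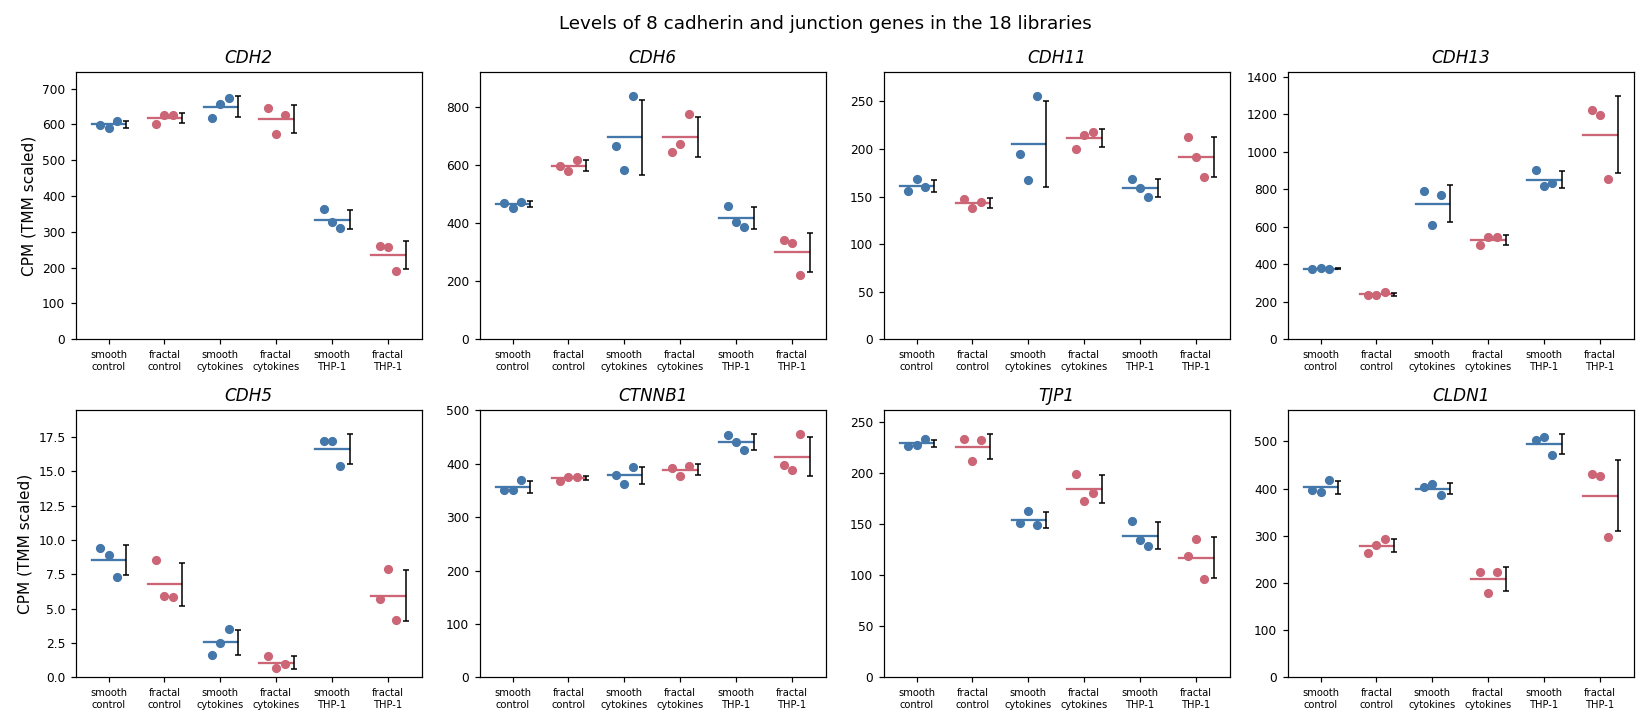
Each panel plots 1 gene's level (y axis, CPM after TMM scaling, from 0) in the 18 libraries by group (x axis); points are libraries, horizontal lines group means and bars beside them ± 1 SD (n = 3), blue for the smooth and red for the fractal surface. CDH2 lies between 573 and 674 CPM in the 12 libraries without macrophages and between 191 and 363 CPM with them, while CDH13 climbs to between 820.0 and 1223 CPM there.

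K-cadherin (CDH6), a cadherin of the developing nephron, was called higher with cytokines on the smooth surface and lower with THP-1 macrophages on the fractal surface. CDH6 (ENSG00000113361) lies on chromosome 5 at 31193750 to 31329146, plus strand. The control libraries gave 470.4, 454 and 473 CPM on the smooth surface and 597, 580.3 and 617 CPM on the fractal surface. Under cytokines the values were 666, 583 and 838 CPM (smooth) and 646, 672 and 775 CPM (fractal). With THP-1 macrophages they were 459, 404 and 387 CPM (smooth) and 343, 332 and 222 CPM (fractal). By group mean the order was fractal cytokines, smooth cytokines, fractal control, smooth control, smooth THP-1 and fractal THP-1; the first 3 overlapped as neighbours, as did the smooth control and smooth THP-1 libraries, and the other neighbours did not. The 3 fractal controls all lay above the 3 smooth controls, by 0.36 ± 0.13, which did not pass (edgeR adjusted p = 0.24). With any 1 control library left out it also did not pass (edgeR adjusted p from 0.41 to 0.54). The difference passed with no low-count filter (edgeR adjusted p = 0.0065) and in a fit of the control libraries alone (edgeR adjusted p = 6.2e-20). It also passed when the 2 libraries that stand apart, neither of them a control, were left out (edgeR adjusted p = 0.0025). The rise with cytokines was 0.58 ± 0.13 on the smooth surface (edgeR adjusted p = 0.0027; 0.69 ± 0.14 without smooth cytokines replicate 2). The fractal value was 0.22 ± 0.13, between groups that did not overlap, and was not called (edgeR adjusted p = 0.25); it passed in a fit of these 6 libraries alone (edgeR adjusted p = 0.0023) and with both libraries that stand apart left out (edgeR adjusted p = 0.022). The difference between these 2 responses was −0.36 ± 0.19 (edgeR adjusted p = 0.44), and −0.47 with both left out (edgeR adjusted p = 0.0066). Without smooth cytokines replicate 2 alone it was −0.47 ± 0.19 and not called (edgeR adjusted p = 0.24). The change with macrophages was −0.998 ± 0.14 on the fractal surface (edgeR adjusted p = 3.2e-06, and −0.83 ± 0.12 without fractal THP-1 replicate 3), against −0.16 ± 0.13 on the smooth surface (edgeR adjusted p = 0.39). The smooth value passed in a fit of the smooth control and smooth THP-1 libraries alone (−0.15 ± 0.05, edgeR adjusted p = 0.0098). The difference between these responses was −0.84 ± 0.19 (edgeR adjusted p = 0.0049), and −0.67 without fractal THP-1 replicate 3. With macrophages present CDH6 was lower on the fractal surface, at −0.48 ± 0.13 (edgeR adjusted p = 0.015), a call lost without that library (−0.31, edgeR adjusted p = 0.069) and without smooth THP-1 replicate 1 (edgeR adjusted p = 0.078). In a fit of the 6 macrophage libraries alone it was also not called (edgeR adjusted p = 0.11). With both libraries that stand apart left out it was called (−0.31 ± 0.08, edgeR adjusted p = 0.0082).

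OB-cadherin (CDH11), a mesenchymal cadherin found on fibroblasts and osteoblasts, rose with cytokines on both surfaces and with THP-1 macrophages on the fractal surface. CDH11 (ENSG00000140937) lies on chromosome 16 at 64943753 to 65126112, minus strand. Untreated libraries gave 156, 168 and 159.8 CPM on the smooth surface and 148, 138 and 144 CPM on the fractal surface. Cytokine-treated libraries gave 194, 167 and 256 CPM (smooth) and 200.3, 215 and 218 CPM (fractal). Libraries with macrophages gave 169, 159 and 149.6 CPM (smooth) and 213, 191 and 171 CPM (fractal). The fractal cytokines, smooth cytokines and fractal THP-1 groups, highest by mean, overlapped as neighbours, the smooth control and smooth THP-1 libraries overlapped below them, and the fractal controls were lowest. Cytokines went with 0.56 ± 0.11 on the fractal surface (edgeR adjusted p = 0.00034). The smooth value of 0.35 ± 0.11 was called (edgeR adjusted p = 0.017) although the groups overlapped; without smooth cytokines replicate 3 it was 0.14 and not called (edgeR adjusted p = 0.31), and the call was also lost without smooth control replicate 1 or 3 (edgeR adjusted p = 0.074 and 0.059) and in a fit of these 6 libraries alone (edgeR adjusted p = 0.060). Without smooth cytokines replicate 2, which stands apart, it was 0.48 ± 0.10. THP-1 macrophages went with 0.42 ± 0.11 on the fractal surface (edgeR adjusted p = 0.0021; 0.49 ± 0.12 without fractal THP-1 replicate 3) and with −0.02 ± 0.11 on the smooth surface (edgeR adjusted p = 0.91). The difference between the latter 2 responses, 0.44 ± 0.15, missed the threshold (edgeR adjusted p = 0.057). It passed under RLE and upper-quartile scaling, no filter, the filter of 1 CPM, DESeq2 and a fit of these groups alone (adjusted p from 0.012 to 0.0498), and without fractal THP-1 replicate 3 (0.51, edgeR adjusted p = 0.026). Between the surfaces with macrophages CDH11 stood at 0.27 ± 0.11 with no overlap and was not called (edgeR adjusted p = 0.084), but passed with upper-quartile scaling, with no filter and without fractal THP-1 replicate 3 (0.34, edgeR adjusted p = 0.040).

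T-cadherin (CDH13) lacks the transmembrane and catenin-binding parts of its family and is held to the membrane by a lipid anchor. It was the only member called higher in every treatment comparison. CDH13 (ENSG00000140945) lies on chromosome 16 at 82626803 to 83800640, plus strand. The smooth controls gave 374, 381 and 374 CPM and the fractal controls 234, 238 and 249 CPM. Cytokine libraries gave 790.3, 611 and 771 CPM (smooth) and 501, 548 and 547 CPM (fractal). Macrophage libraries gave 903, 820.0 and 832 CPM (smooth) and 1223, 1197 and 855 CPM (fractal). The groups did not overlap as neighbours in the order of their means, apart from the fractal and smooth THP-1 groups at the top. On the fractal surface CDH13 started lower, at −0.65 ± 0.11 in the controls (edgeR adjusted p = 0.0011), and it was also lower with cytokines, at −0.45 ± 0.11 (edgeR adjusted p = 0.011). The latter call was lost without smooth cytokines replicate 1 or 3 (edgeR adjusted p = 0.061 and 0.059) or fractal cytokines replicate 1 (edgeR adjusted p = 0.072), and without smooth cytokines replicate 2 the value was −0.55 ± 0.10. With macrophages the sign was the opposite, 0.36 ± 0.11 (edgeR adjusted p = 0.018). That call, made between overlapping groups, was lost without smooth THP-1 replicate 2 or 3 or fractal THP-1 replicate 1 or 2 (edgeR adjusted p from 0.069 to 0.10) and in a fit of these 6 libraries alone (edgeR adjusted p = 0.14), whereas without fractal THP-1 replicate 3 it was 0.50 ± 0.07.

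Among the 8 tested members CDH13 had the largest rise in each of the 4 treatment comparisons. Cytokines went with 0.94 ± 0.11 on the smooth surface (edgeR adjusted p = 2.3e-07; 1.05 ± 0.10 without smooth cytokines replicate 2) and 1.14 ± 0.11 on the fractal surface (edgeR adjusted p = 1.4e-08), a difference of 0.20 ± 0.15 that did not pass (edgeR adjusted p = 0.65). THP-1 macrophages went with 1.18 ± 0.11 on the smooth surface (edgeR adjusted p = 4.5e-09), which is 2.26-fold, and with 2.18 ± 0.11 on the fractal surface (edgeR adjusted p = 3e-14), which is 4.54-fold. Here the fractal response exceeded the smooth one, by 1.00 ± 0.15 (edgeR adjusted p = 3.9e-05), and by 1.15 without fractal THP-1 replicate 3, where the fractal response was 2.32 ± 0.07. Each surface was compared with its own controls.

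VE-cadherin (CDH5), the cadherin of endothelial adherens junctions, was present at a low level, fell with cytokines on both surfaces and rose with THP-1 macrophages on the smooth surface. CDH5 (ENSG00000179776) lies on chromosome 16 at 66366622 to 66404786, plus strand. Its libraries gave 9.41, 8.92 and 7.32 CPM in the smooth controls and 8.55, 5.92 and 5.82 CPM in the fractal controls. Cytokines brought 1.65, 2.51 and 3.5 CPM (smooth) and 1.6, 0.676 and 0.954 CPM (fractal). With macrophages the values were 17.2, 17.2 and 15.3 CPM (smooth) and 5.69, 7.92 and 4.21 CPM (fractal). The smooth THP-1 libraries lay above all others, the 2 control groups and the fractal THP-1 group overlapped as neighbours, and the cytokine groups lay below them without overlapping each other. The fall with cytokines was −1.74 ± 0.27 on the smooth surface (edgeR adjusted p = 1.9e-05; −1.72 ± 0.31 without smooth cytokines replicate 2) and −2.65 ± 0.31 on the fractal surface (edgeR adjusted p = 3.7e-07), and these 2 responses did not differ by the test (−0.92 ± 0.42, edgeR adjusted p = 0.33). Macrophages went with 0.95 ± 0.24 on the smooth surface (edgeR adjusted p = 0.0026) and with −0.17 ± 0.25 on the fractal surface (edgeR adjusted p = 0.60), a value of 0.01 without fractal THP-1 replicate 3.

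The difference between the macrophage responses of CDH5 was −1.12 ± 0.34 (edgeR adjusted p = 0.030). It was −0.94 without fractal THP-1 replicate 3, and the call was lost without smooth control replicate 2 or 3, fractal control replicate 1, or smooth THP-1 replicate 1 or 2 (edgeR adjusted p from 0.055 to 0.11). Between the surfaces CDH5 was lower on fractal with macrophages, at −1.47 ± 0.24 (edgeR adjusted p = 8.5e-05; −1.29 ± 0.23 without that library), and with cytokines, at −1.26 ± 0.33 (edgeR adjusted p = 0.026). The cytokine call rested on levels from 0.676 to 3.5 CPM and was lost without smooth cytokines replicate 2 (−1.28 ± 0.37, edgeR adjusted p = 0.052) or 3, or fractal cytokines replicate 2 or 3 (edgeR adjusted p from 0.11 to 0.22), and in a fit of these 6 libraries alone (edgeR adjusted p = 0.10). With both libraries that stand apart left out it was called (−1.28 ± 0.33, edgeR adjusted p = 0.0062). The 12 other endothelial markers summed to 15.8 to 17.8 and 17.5 to 21.4 CPM in the smooth and fractal controls, 20.2 to 21.5 and 13.5 to 17.7 CPM with cytokines, and 39.6 to 44.7 and 30.8 to 38.8 CPM with macrophages. Of the 8 that were tested, macrophages raised 4 and lowered 0 on the smooth surface (17.3% and 17.7% of all genes) and raised 2 and lowered 1 on the fractal surface (25% and 25.5%), with median log2 fold changes of 1.16 and 0.14. EMCN was at 0 in all 6 groups, and the part of endothelial-type RNA in the CDH5 results was not tested.

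P-cadherin (CDH3), the cadherin described at the slit diaphragm, was all but absent. CDH3 (ENSG00000062038) lies on chromosome 16 at 68636189 to 68722616, plus strand. The 18 libraries held 6 counts of it, in 4 libraries and with at most 2 in any 1, so it was not tested. The fractal controls and the smooth cytokine libraries held 0 counts, which allows a level of up to 0.0537 and 0.0583 CPM over the group (3 counts; counting error only). No direction can be read for CDH3 at this depth.

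**Figure D2:**
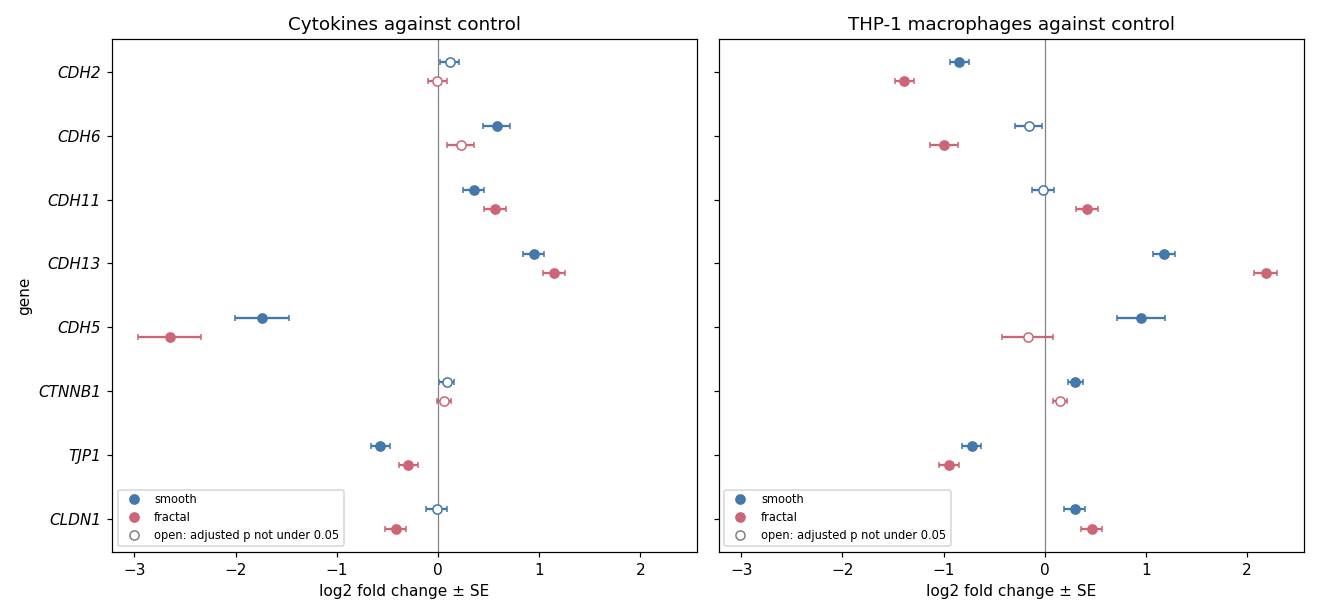
Log2 fold change ± SE (x axis, same scale in both panels) of the 8 tested members (y axis) for cytokines against control (left) and THP-1 macrophages against control (right), blue for the smooth and red for the fractal surface, with open points where the adjusted p was not under 0.05. The point farthest right is CDH13 with macrophages on the fractal surface (2.18) and the point farthest left CDH5 with cytokines on the fractal surface (−2.65).

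Levels of the 5 tested cadherins and of CDH3 were summed per kilobase of merged exons, a length that counts all annotated exons of a gene. CDH3 made up at most 0.0091% of the sum in any library. On this scale CDH2 held the largest share without macrophages, whereas CDH13 held the largest share with them. The expressed length was not measured, and the order of the genes depends on the length used. CDH2 made up 58.9% ± 0.37 (SD, n = 3 here and for each share) of the sum in the smooth controls and 60.5% ± 0.81 in the fractal controls. With THP-1 macrophages it made up 35.1% ± 0.58 on the smooth and 25.9% ± 0.44 on the fractal surface. CDH13 went the other way, from 16.3% ± 0.30 and 10.4% ± 0.16 in the smooth and fractal controls to 39.7% ± 0.99 and 52.8% ± 0.49 with macrophages. On this scale cytokines left CDH2 the largest share, and CDH13 held 24.1% ± 2.4 (smooth) and 19.5% ± 1.2 (fractal). In CPM, without the length, CDH13 (mean 724) and CDH6 (696) stood above CDH2 (649) with cytokines on the smooth surface. On the fractal surface CDH6 (698) stood above CDH2 (615) and CDH13 (532). The sum itself was 206 ± 2.0 and 207 ± 3.8 CPM per kilobase in the smooth and fractal controls, 268 ± 23 and 244 ± 9.6 with cytokines, and 192 ± 13 and 185 ± 33 with macrophages. CDH5 never exceeded a mean share of 1.42%. These shares do not depend on the scaling of the libraries, and the same holds for the ratio of CDH2 to CDH13 counts within a library. That ratio ran from 1.55 to 1.63 in the smooth controls and from 2.52 to 2.63 in the fractal controls. It ran from 0.781 to 1.08 and from 1.05 to 1.29 with cytokines on the smooth and fractal surface. With macrophages it ran from 0.373 to 0.402 (smooth) and from 0.213 to 0.223 (fractal). Fractal THP-1 replicate 3, low for most members in CPM, lay near replicates 1 and 2 in this ratio (0.223 against 0.213 and 0.214). It lay farther from them in the ratio of CDH2 to CDH6 (0.859 against 0.759 and 0.772). The same held for CDH11 to CDH2 (0.894 against 0.818 and 0.746).

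**Figure D3:**
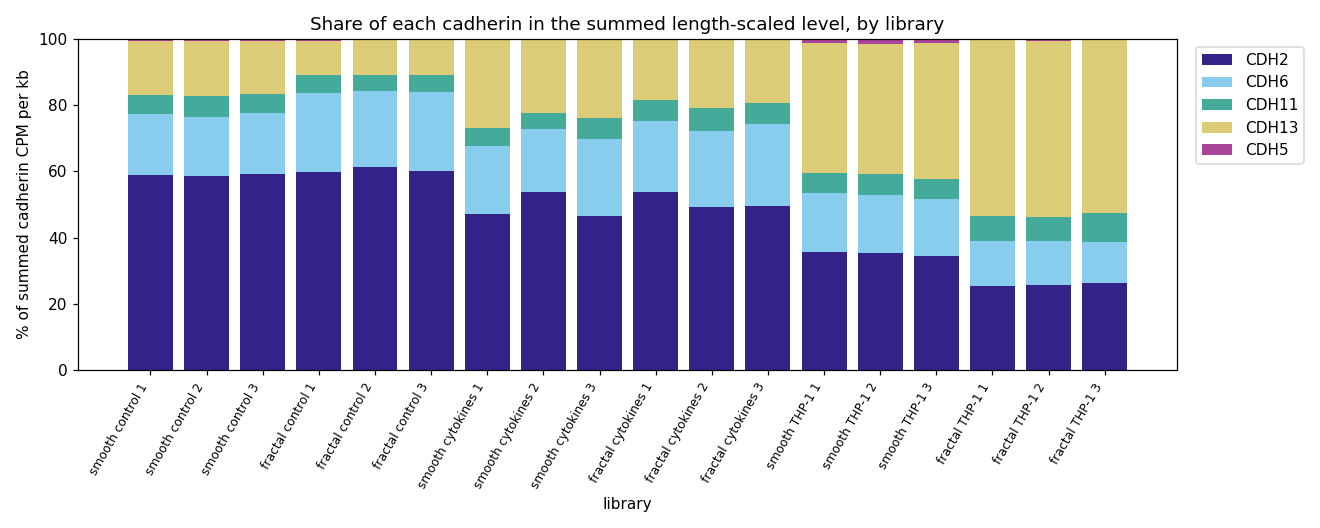
Stacked bars give, for each of the 18 libraries (x axis), the share of 5 cadherins in the summed CPM per kilobase of exon (y axis, %, 0 to 100). CDH3, at most 0.0091%, is in the sum and is not drawn. The CDH2 share is between 58.5% and 61.4% in the 6 controls and near 25.9% in the 3 fractal THP-1 libraries, where CDH13 takes 52.8% on average.

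β-catenin (CTNNB1), which links classical cadherins to α-catenin and also carries Wnt signals to the nucleus, was the tested member with the smallest ratio of highest to lowest group mean, and was called for THP-1 macrophages on the smooth surface alone. CTNNB1 (ENSG00000168036) lies on chromosome 3 at 41194741 to 41260096, plus strand. The controls gave 350.1, 350.0 and 369.7 CPM (smooth) and 368, 375 and 375 CPM (fractal). Cytokine libraries gave 379.6, 362 and 393 CPM (smooth) and 392, 378 and 396 CPM (fractal), and macrophage libraries gave 454, 441 and 425 CPM (smooth) and 397, 387 and 455 CPM (fractal). Every pair of neighbouring groups in the order of the means overlapped. The smooth THP-1 libraries all lay above the smooth controls, by 0.30 ± 0.07 (edgeR adjusted p = 0.0016). The fractal value with macrophages was 0.15 ± 0.07 (edgeR adjusted p = 0.088) and passed with DESeq2 (adjusted p = 0.024) and with upper-quartile scaling (edgeR adjusted p = 0.0053). Without fractal THP-1 replicate 3, the highest CTNNB1 library of its group, it was 0.067 ± 0.06 (edgeR adjusted p = 0.39). Between the surfaces with macrophages CTNNB1 stood at −0.09 ± 0.07 (edgeR adjusted p = 0.41) and without that library at −0.17 ± 0.06, which passed (edgeR adjusted p = 0.045). The difference between the macrophage responses was −0.16 ± 0.10 (edgeR adjusted p = 0.36), and −0.23 ± 0.08 without it, which also passed (edgeR adjusted p = 0.044). The cytokine values were 0.08 ± 0.07 and 0.06 ± 0.07, neither called.

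ZO-1 (TJP1), the scaffold under tight junctions that is also found at the slit diaphragm, fell in all 4 treatment comparisons. TJP1 (ENSG00000104067) lies on chromosome 15 at 29699367 to 29968865, minus strand. In untreated cells its libraries gave 226, 228 and 233 CPM (smooth) and 234, 212 and 232 CPM (fractal). In treated cells they gave 151, 163 and 149 CPM (smooth) and 199.6, 173 and 181 CPM (fractal) with cytokines, and 153, 135 and 129 CPM (smooth) and 119, 136 and 96.3 CPM (fractal) with macrophages. Every treated library lay below every control. The falls were −0.57 ± 0.10 (smooth, edgeR adjusted p = 6.2e-05; −0.61 ± 0.11 without smooth cytokines replicate 2) and −0.29 ± 0.10 (fractal, edgeR adjusted p = 0.025) with cytokines. The fractal cytokine call was lost without fractal control replicate 1 or 3 or fractal cytokines replicate 2 (edgeR adjusted p from 0.067 to 0.088). With macrophages the falls were −0.72 ± 0.10 (smooth, edgeR adjusted p = 1.8e-06) and −0.95 ± 0.10 (fractal, edgeR adjusted p = 1.2e-08, and −0.83 ± 0.08 without fractal THP-1 replicate 3). That the responses differed between the surfaces was not shown for cytokines (0.28 ± 0.14, edgeR adjusted p = 0.38) or macrophages (−0.22 ± 0.14, edgeR adjusted p = 0.32). The difference between the cytokine responses passed with both libraries that stand apart left out (0.32 ± 0.10, edgeR adjusted p = 0.024). Only smooth cytokines replicate 2 of these is in the groups compared. Without it alone the difference was 0.32 ± 0.14 and not called (edgeR adjusted p = 0.31). With all libraries the surfaces were not called different under any condition, with values of −0.02 ± 0.10 in the controls, 0.26 ± 0.10 with cytokines and −0.24 ± 0.10 with macrophages (edgeR adjusted p = 0.98, 0.17 and 0.080). The cytokine value passed with both libraries that stand apart left out (0.30 ± 0.07, edgeR adjusted p = 0.0029). Without smooth cytokines replicate 2 alone it was 0.30 ± 0.11 and not called (edgeR adjusted p = 0.15). The macrophage value was −0.12 ± 0.08 without fractal THP-1 replicate 3 (edgeR adjusted p = 0.28) and −0.37 ± 0.10 without fractal THP-1 replicate 2, which passed (edgeR adjusted p = 0.0091).

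Claudin-1 (CLDN1), a sealing claudin of epithelial tight junctions, was the only member called lower on the fractal surface under all 3 conditions. CDH5 also had lower values there under each, but was not called in the controls (−0.34 ± 0.24, edgeR adjusted p = 0.64). CLDN1 (ENSG00000163347) lies on chromosome 3 at 190305701 to 190322475, minus strand. The smooth controls gave 398, 392 and 419 CPM and the fractal controls 264, 280.2 and 293 CPM. With cytokines the libraries gave 403, 409 and 387 CPM (smooth) and 224, 179.6 and 223 CPM (fractal). With macrophages they gave 502, 509 and 471 CPM (smooth) and 429.9, 426 and 298 CPM (fractal). Within each condition the fractal and smooth libraries did not overlap; the smooth controls, smooth cytokine and fractal THP-1 groups overlapped as neighbours in the order of the means. The surface difference was −0.53 ± 0.10 in the controls (edgeR adjusted p = 0.0060), −0.94 ± 0.11 with cytokines (edgeR adjusted p = 1.5e-06; −0.92 ± 0.12 without smooth cytokines replicate 2) and −0.36 ± 0.10 with macrophages (edgeR adjusted p = 0.016). Without fractal control replicate 1 the first was not called (edgeR adjusted p = 0.055). Without smooth THP-1 replicate 1 or 2 the last was not called (edgeR adjusted p = 0.051 and 0.057), nor in a fit of these 6 libraries alone (edgeR adjusted p = 0.16), and without fractal THP-1 replicate 3 it was −0.21 ± 0.07 (edgeR adjusted p = 0.033).

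The treatments went with unlike values for CLDN1. Cytokines left it at −0.01 ± 0.10 on the smooth surface (edgeR adjusted p = 0.95) and lowered it on the fractal surface, by −0.42 ± 0.11 (edgeR adjusted p = 0.0041). That the 2 responses differed was not shown (−0.41 ± 0.15, edgeR adjusted p = 0.18), although the difference passed with no low-count filter (edgeR adjusted p = 0.023) and with both libraries that stand apart left out (edgeR adjusted p = 0.0030). Without smooth cytokines replicate 2 alone it was −0.39 ± 0.16 and not called (edgeR adjusted p = 0.25). Macrophages went with 0.46 ± 0.10 on the fractal surface (edgeR adjusted p = 0.00064; 0.61 ± 0.07 without fractal THP-1 replicate 3). On the smooth surface they went with 0.29 ± 0.10 (edgeR adjusted p = 0.030), a call lost without any 1 of the 3 smooth controls or without smooth THP-1 replicate 1 or 2 (edgeR adjusted p from 0.053 to 0.10). The difference between these responses was 0.17 ± 0.15 (edgeR adjusted p = 0.51), and passed without fractal THP-1 replicate 3 (0.32, edgeR adjusted p = 0.015). Because libraries carried no strand, reads of a gene and of an antisense partner cannot be told apart; CDH5, CDH11 and CLDN1 overlap no annotated gene on the other strand, and the other 6 members do.

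Set against all 16129 genes, the calls among the 8 tested members were as follows, with the share of all genes called in the same direction in parentheses. Between the control surfaces 1.77% of all genes were called; 0 members were higher on fractal (0.651%) and 2 were lower (1.12%), CDH13 and CLDN1. With cytokines 4.46% of all genes differed between the surfaces; 0 members were higher on fractal (1.72%) and 3 were lower (2.74%), CDH5, CDH13 and CLDN1. With macrophages 20% differed; 1 member, CDH13, was higher on fractal (8.25%) and 4 were lower (11.7%). Cytokines changed 25.7% of all genes on the smooth surface, where 3 members rose (13.2%) and 2 fell (12.4%). On the fractal surface they changed 25.8%, and 2 members rose (13%) and 3 fell (12.9%). Macrophages changed 35.1% on the smooth surface, where 4 members rose (17.3%) and 2 fell (17.7%). On the fractal surface they changed 50.5%, and 3 members rose (25%) and 3 fell (25.5%).

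The response to macrophages differed between the surfaces for 4 members against 13.2% of all genes: it was higher on fractal for CDH13 (5.35% of all genes) and lower for CDH2, CDH5 and CDH6 (7.88%). The response to cytokines differed for 0 members by edgeR, in either direction, against 2.7% of all genes (1.28% higher and 1.43% lower), with 2 members at an unadjusted p under 0.05 and 0 called by DESeq2. The libraries of the groups compared did not overlap for 4 of the 8 members between control surfaces (30.3% of all genes), for 4 with cytokines (17.6%) and for 5 with macrophages (31.1%). They did not overlap for 5 and 7 members with cytokines against control on the smooth and fractal surface (43.3% and 46.8% of all genes), and for 6 and 7 with macrophages against control (54.4% and 55.1%). The median log2 fold change of the members ran from −0.30 (surfaces, with macrophages) to 0.14 (macrophages, smooth), against medians over all genes between −0.01 and 0.04. Comparisons on the same surface share their control libraries, and surface comparisons share libraries with the treatment comparisons, so their values stand side by side and are not independent.

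Of the wider adherens junction list, JUP and PTPRM rose and LIMA1 fell with both treatments on both surfaces. For the lists from here on, the shares of all genes called are those given above: with cytokines 13.2% higher and 12.4% lower on the smooth surface and 13% and 12.9% on the fractal surface, and with macrophages 17.3% and 17.7%, and 25% and 25.5%. Of 20 catenins and adherens junction partners 16 were tested. Cytokines raised 2 and lowered 6 on each surface, and macrophages raised 6 and lowered 5 on the smooth and raised 6 and lowered 6 on the fractal surface. JUP (plakoglobin), a catenin shared by adherens junctions and desmosomes, stood at 139 ± 4.2 CPM in the smooth controls and 141 ± 3.1 CPM in the fractal controls. It rose with cytokines by 0.98 ± 0.08 on the smooth and 0.34 ± 0.08 on the fractal surface, a difference of −0.64 ± 0.11 that was called (edgeR adjusted p = 0.0010; −0.73 without smooth cytokines replicate 2). With macrophages JUP rose by 0.99 ± 0.08 on either surface. LIMA1, an actin-binding protein linked to the cadherin and catenin complex, fell with each treatment on each surface, from −0.72 ± 0.09 (cytokines, fractal) to −1.03 ± 0.09 (macrophages, fractal). PTPRM, a receptor phosphatase of cell contacts, rose in all 4, and its response to macrophages was larger on the fractal surface, by 0.88 ± 0.15 (edgeR adjusted p = 0.00014). PTPRB, the phosphatase partner of VE-cadherin, fell with macrophages on the fractal surface by −1.65 ± 0.20 and stood at −0.29 ± 0.19 on the smooth surface (edgeR adjusted p = 0.25, and 0.017 in a fit of these groups alone), a difference of −1.36 ± 0.28 (edgeR adjusted p = 0.0015). NECTIN3, an adhesion molecule that recruits cadherins, also fell further with macrophages on the fractal surface, by −0.54 ± 0.15 (edgeR adjusted p = 0.013). Without fractal THP-1 replicate 3 these 3 differences between responses were 1.00 for PTPRM, −1.08 for PTPRB and −0.47 for NECTIN3, all called.

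The desmosomal DSG2 and the gap junction gene GJA1 fell with macrophages on both surfaces. Of 11 desmosome genes 5 were tested. Macrophages lowered 3 on the smooth and 2 on the fractal surface (17.7% and 25.5% of all genes) and raised 0 (17.3% and 25%). DSG2, a desmosomal cadherin, went from 280.3 ± 9.1 and 280.1 ± 4.5 CPM in the smooth and fractal controls to 73.7 ± 7.3 and 47.2 ± 12 CPM with macrophages. These falls were −1.93 ± 0.12 and −2.56 ± 0.13 and differed by −0.63 ± 0.17 (edgeR adjusted p = 0.015). Without fractal THP-1 replicate 3 the DSG2 difference was −0.44 (edgeR adjusted p = 0.0016), and without smooth THP-1 replicate 1 it was −0.56 and not called (edgeR adjusted p = 0.054). Of 13 gap junction genes 5 were tested. Macrophages raised 1 and lowered 1 on the smooth surface (17.3% and 17.7% of all genes). On the fractal surface they raised 1 and lowered 2 (25% and 25.5%). GJA1 (connexin 43) went from 604 ± 12 and 681 ± 7.4 CPM to 243 ± 18 and 252 ± 21 CPM, falls of −1.32 ± 0.08 and −1.44 ± 0.08 that did not differ by the test (edgeR adjusted p = 0.55). GJB2 (connexin 26) rose from 4.88 ± 0.13 and 2.12 ± 0.88 CPM to 26.8 ± 1.3 and 24.4 ± 3.5 CPM.

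With macrophages, most tested tight junction genes outside the 9 did not pass, and those that did were more often higher than lower. Of 34 listed genes 24 were tested. Macrophages raised 8 and lowered 1 on the smooth surface (17.3% and 17.7% of all genes), with a median of 0.23. On the fractal surface they raised 9 and lowered 2 (25% and 25.5%), with a median of 0.40. Cytokines raised 3 and lowered 4 on the smooth surface (13.2% and 12.4%). They raised 3 and lowered 5 on the fractal surface (13% and 12.9%). CGNL1 (paracingulin), an adaptor of the apical junction, rose with macrophages from 9.77 ± 1.1 to 43.2 ± 5.4 CPM on the smooth and from 8.12 ± 1.8 to 61.3 ± 6.4 CPM on the fractal surface, by 2.15 ± 0.18 and 2.91 ± 0.18. Under cytokines CGNL1 was lower on the fractal surface, by −1.15 ± 0.19 (edgeR adjusted p = 0.00030; −1.38 without smooth cytokines replicate 2). Of 24 protocadherins and giant cadherins 19 were tested. Macrophages raised 9 and lowered 3 on the smooth surface (17.3% and 17.7% of all genes), with a median of 0.59. On the fractal surface they raised 12 and lowered 3 (25% and 25.5%), with a median of 1.05. Cytokines raised 11 and lowered 1 of this list on the smooth surface (13.2% and 12.4%), with a median of 0.36. They raised 6 and lowered 0 on the fractal surface (13% and 12.9%), with a median of 0.37. CLSTN2 (calsyntenin 2), of the same superfamily, rose with macrophages from 3.78 ± 0.81 to 23.0 ± 2.0 CPM on the smooth and from 1.37 ± 0.36 to 102 ± 21 CPM on the fractal surface, and these responses differed by 3.58 ± 0.44 (edgeR adjusted p = 2.1e-05, and 3.73 without fractal THP-1 replicate 3). CLSTN2 also rose with cytokines on the smooth surface, by 2.65 (2.80 ± 0.29 without smooth cytokines replicate 2, edgeR adjusted p = 1.5e-06). Among 17 other cadherins 7 were tested. CDH8 fell with cytokines, from 4.86 ± 0.24 to 0.465 ± 0.26 CPM on the smooth surface, and rose with macrophages there to 13.2 ± 0.99 CPM. CDH1 (E-cadherin), the epithelial cadherin, held at most 5 counts in any group and was not tested.

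All 9 listed genes known to repress cadherins were tested. Cytokines raised 2 and lowered 1 on the smooth surface (13.2% and 12.4% of all genes). They raised 4 and lowered 0 on the fractal surface (13% and 12.9%). Macrophages raised 2 and lowered 3 on the smooth surface (17.3% and 17.7%). They raised 3 and lowered 3 on the fractal surface (25% and 25.5%). SNAI1 (Snail), a repressor of E-cadherin in epithelial to mesenchymal transition, stood at 8.03 ± 0.36 CPM in the smooth and 12.6 ± 0.47 CPM in the fractal controls, a difference of 0.65 ± 0.14 (edgeR adjusted p = 0.013). That call was lost without smooth control replicate 1 or 3 or fractal control replicate 1 or 2 (edgeR adjusted p from 0.064 to 0.085). Cytokines raised SNAI1 to 21.8 ± 3.2 and 36.1 ± 5.2 CPM, by 1.44 ± 0.14 and 1.52 ± 0.13. Macrophages lowered it to 4.93 ± 0.55 and 4.95 ± 0.12 CPM, by −0.70 ± 0.15 and −1.35 ± 0.15. SNAI2 (Slug) rose with cytokines on both surfaces, by 1.41 ± 0.21 and 0.79 ± 0.21, and with macrophages on the smooth surface, by 0.80 ± 0.22; the fractal value was −0.13 ± 0.21 (edgeR adjusted p = 0.64), and 0.15 without fractal THP-1 replicate 3. Of 12 β-catenin target genes 4 were tested. Macrophages raised 1 on the smooth and 2 on the fractal surface (17.3% and 25% of all genes) and lowered 0 (17.7% and 25.5%). AXIN2, a target used to read Wnt signalling, was at 0.825 ± 0.58 and 0.418 ± 0.077 CPM in the controls and 1.56 ± 0.16 and 2.17 ± 0.39 CPM with macrophages. AXIN2 was called on the fractal surface (2.36 ± 0.49, edgeR adjusted p = 0.00027) and not on the smooth surface (0.89 ± 0.46, edgeR adjusted p = 0.14; 1.66 and called without smooth control replicate 2, edgeR adjusted p = 0.021), and the responses did not differ by the test (edgeR adjusted p = 0.17).

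Among these wider-list genes, no call for the values that follow was lost without the libraries that stand apart. Without fractal THP-1 replicate 3, the fractal change with macrophages was 1.42 for PTPRM, −0.92 for LIMA1, −1.38 for PTPRB, −2.38 for DSG2, −1.37 for GJA1, 2.82 for CGNL1, −1.34 for SNAI1 and 2.20 for AXIN2. Without smooth cytokines replicate 2, the smooth change with cytokines was 1.06 for JUP, −2.99 for CDH8, 1.52 for SNAI1 and 1.31 for SNAI2.

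**Figure D4:**
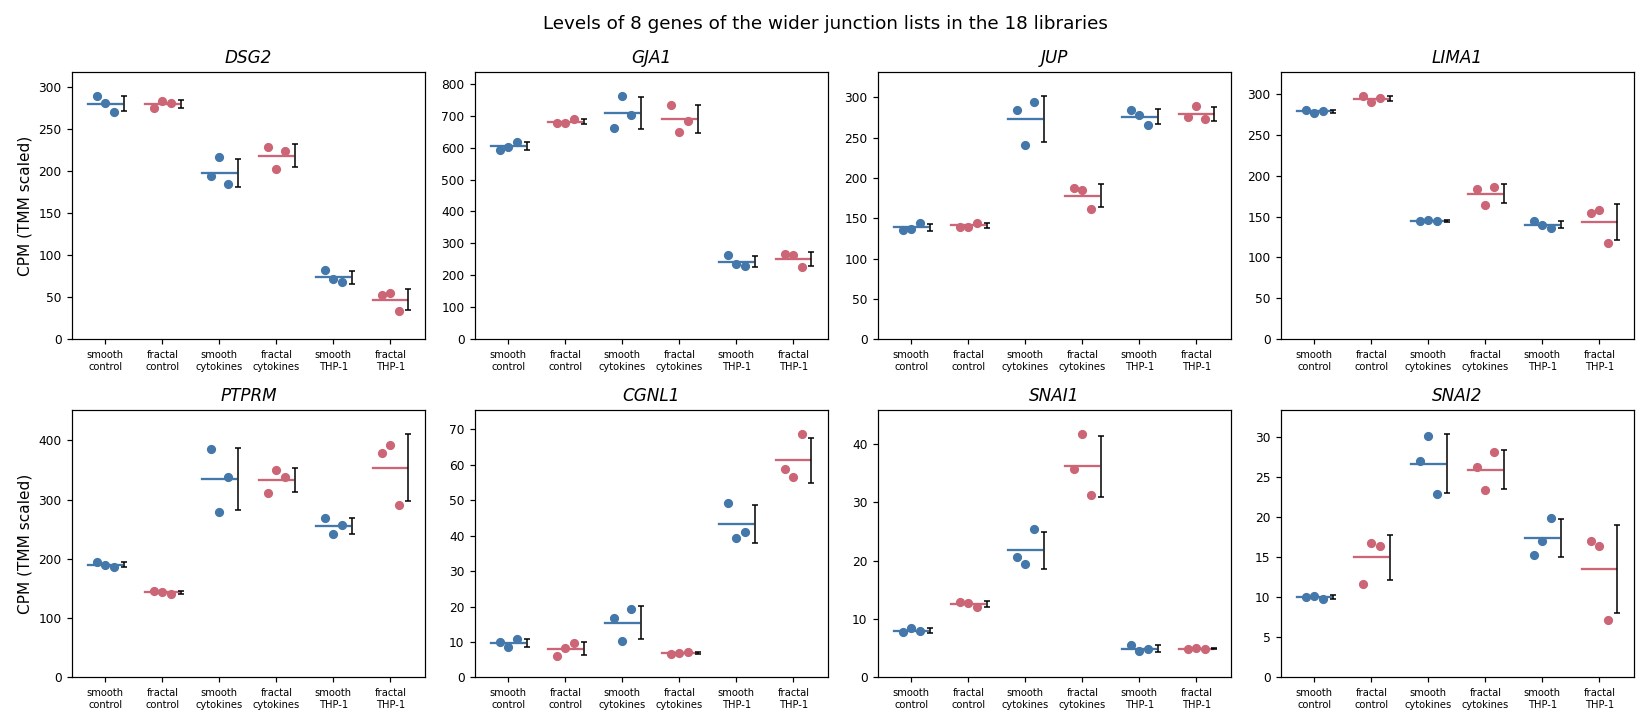
Each panel plots 1 gene of the wider junction lists (y axis, CPM after TMM scaling, from 0) in the 18 libraries by group (x axis); points are libraries, lines group means and bars ± 1 SD (n = 3), blue for smooth and red for fractal. DSG2 and GJA1 fall with THP-1 macrophages on both surfaces, to means of 47.2 to 73.7 CPM and 243 to 252 CPM, and SNAI1 is highest with cytokines on the fractal surface (36.1 CPM).

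The protein-coding genes most like each member were ranked by Pearson's r of log2 CPM over the 18 libraries, among 10243 genes with a mean of at least 5 CPM. The 18 points share 6 groups, so these r values describe the group pattern and carry no p. CDH2 was nearest to RPN2 (r = 0.984) and RAP1B (0.983). CDH13 was nearest to ADAMTS5 (0.982) and ICOSLG (0.979), and TJP1 to CCDC88A (0.977) and MYC (0.975). CDH5 ran with OSBPL3 (0.970) and CNN3 (0.956), and CDH6 with S1PR3 (0.964) and HAS2 (0.938). The nearest gene had a lower r for CTNNB1 (MYO9B, 0.936), CDH11 (SLC35D1, 0.922) and CLDN1 (MAMDC2, 0.918).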

How the data were processed

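Polyadenylated RNA of 18 libraries was sequenced as unstranded paired reads, per the labels' protocols. CASAVA, HISAT2 2.0.5, featureCounts 1.5.0-p3 and GRCh38 (hg38) are named per the submitters' processing notes; the annotation used for counting is not given in the sources used here. The deposited table holds raw counts, whole numbers for 58735 Ensembl genes, with no normalization by the authors. Positions and exon lengths were added from GENCODE 29, and symbols from a current list for 41937 genes, otherwise from GENCODE.

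Counts were tested with edgeR 4.0.16 (R 4.3.3): TMM scaling, filterByExpr (min.count 10, min.total.count 15; 16129 genes), 1 mean for each of the 6 groups, quasi-likelihood F-tests with robust settings, 12 residual degrees of freedom, a biological coefficient of variation of 12.2%, and Benjamini-Hochberg adjustment over all genes of each of 9 comparisons at 0.05. SE is the absolute log2 fold change divided by the square root of F. The test was tried on simulated counts. Per length means CPM per kilobase of merged exons. Alternatives were DESeq2 1.42.0, RLE and upper-quartile scaling, no filter, at least 1 CPM in 3 libraries, only the comparison's groups, the replicate number as a block, and leaving out each library; a run without the 2 libraries that stand apart was added after the data were seen. Figures used matplotlib 3.10.9.

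Named are all 9 members; from each list up to 3 genes in each direction per comparison by adjusted p; the genes most correlated with a member; and AXIN2 and SNAI2. CDH1 and the marker genes were named after their values were seen. The members and lists were chosen with earlier results of these data known. Precision is limited by 3 libraries a group and 11488204 to 21264180 counts a library.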

Additional observations from a re-analysis of the deposited data

Results flagged for a closer look

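The response to THP-1 macrophages differed between the surfaces for 4 members by the edgeR test of the difference itself (fractal minus smooth change, log2 ± SE). CDH13 differed by 1.00 ± 0.15 (edgeR adjusted p = 3.9e-05): it rose on both surfaces, further on the fractal one. CDH2 differed by −0.54 ± 0.13 (edgeR adjusted p = 0.0062) and fell on both surfaces, further on the fractal one. CDH6 differed by −0.84 ± 0.19 (edgeR adjusted p = 0.0049). Its fall was called on the fractal surface only, although the smooth value passed in a fit of the smooth control and smooth THP-1 libraries alone (edgeR adjusted p = 0.0098). CDH5 differed by −1.12 ± 0.34 (edgeR adjusted p = 0.030), and its rise was called on the smooth surface only. The CDH5 difference lost its call without smooth control replicate 2 or 3, fractal control replicate 1, or smooth THP-1 replicate 1 or 2 (edgeR adjusted p from 0.055 to 0.11). Without fractal THP-1 replicate 3 the differences were 1.15 for CDH13, −0.41 for CDH2, −0.67 for CDH6 and −0.94 for CDH5, all called. Macrophage markers also differed between the THP-1 groups. Their summed level was 57.3 to 63.3 CPM on the smooth and 28.2 to 32.2 CPM on the fractal surface, and their part in these differences was not tested.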

How the results depend on the processing

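Over the alternatives, 1014 member values kept direction and side of the threshold, 34 newly passed it, 37 lost it and 19 turned sign; all 19 belong to values that were not called. In the fit of only the comparison's groups, the members called became 4 (not 2) between control surfaces, 2 (not 5) between surfaces with macrophages and 1 (not 0) in the cytokine interaction, which was also 1 with no filter. Without both libraries that stand apart it was 3, and the macrophage interaction was 7 (not 4). Leaving out 1 library gave 1 to 2 calls between control surfaces, 1 to 2 (of 3) with cytokines, 3 to 6 (of 5) with macrophages, 4 to 5 for cytokines on each surface, 5 to 6 and 6 to 6 for macrophages on the smooth and fractal surface, 0 to 0 and 3 to 7 (the latter without fractal THP-1 replicate 3) for the cytokine and macrophage interactions. With fractal against smooth under cytokines, 1 call was left without smooth cytokines replicate 3; with macrophages 3 without smooth THP-1 replicate 1 or 2. The replicate numbers do not pair the libraries (same-number deviations correlated from −0.067 to 0.064, and 7 of 18 libraries correlated best with their own number); with the replicate block the counts of members called were 2, 3, 5, 5, 5, 6, 6, 0 and 4, as without it.

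The values that turned sign are these. CDH6 between surfaces with cytokines was −0.00075 with no filter, ran from −0.11 to 0.15 with 1 library left out (−0.042, −0.11 and −0.086 without smooth cytokines replicate 1, replicate 2 and fractal cytokines replicate 3), and was −0.11 without both libraries that stand apart. CDH11 there ran from −0.092 to 0.22 with 1 left out (−0.018 and −0.092 without smooth cytokines replicates 1 and 2) and was −0.092 without both libraries. TJP1 between control surfaces was 0.025 without fractal control replicate 2, and −0.042 to 0.025 over the libraries left out, and CLDN1 for cytokines on smooth ran from −0.034 to 0.012 (without smooth control replicate 3). CDH2 for cytokines on fractal was 0.021 with upper-quartile scaling and ran from −0.086 to 0.00041 (without fractal cytokines replicate 2). CDH11 for macrophages on smooth was 0.0091 with upper-quartile scaling and ran from −0.067 to 0.021, with 0.0069 and 0.021 without smooth control replicate 2 and smooth THP-1 replicate 3. CDH5 for macrophages on fractal ran from −0.44 (without fractal THP-1 replicate 2) to 0.022, with 0.022, 0.0061 and 0.0065 without fractal control replicate 1, fractal THP-1 replicate 3 and both libraries. CTNNB1 in the cytokine interaction was 0.0066 with upper-quartile scaling. The cause was not tested. Depth limits CDH3, which could not be tested.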
